A study of Mus musculus with 9 samples.

Results

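The 35 genes described here encode the machinery of the G2/M transition and of mitosis: cyclins and mitotic kinases, the spindle checkpoint, the kinetochore, kinesins and the proteins that divide the cell. They were taken by symbol from a count table of splenic regulatory T cells (Treg cells, the CD4+ T cells that carry the transcription factor Foxp3 and restrain immune responses), and all 35 were among the 26683 genes of the table and among the 12738 that entered the test. Cells were sorted as CD4+Foxp3-YFP+ from the spleens of female mice aged 2 to 3 months, with 1 library of total RNA per mouse. The control group (WT, 5 mice) was B6N.Foxp3YFP-Cre, and the knockout group (KO, 4 mice) was EsrrgNf/f.Foxp3YFP-Cre, in which the gene for the nuclear receptor estrogen-related receptor gamma is floxed. Both groups carried the Foxp3-linked Cre and reporter, so Cre acts in cells that express Foxp3. Whether WT and KO mice were littermates is not stated in the labels used here, so colony and genotype cannot be told apart.

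Cells that pass from quiescence into division switch on these genes together, late in the cycle, and switch them off again as they exit mitosis. In resting cells the DREAM complex represses them, and in cycling cells the MuvB core of that complex joins B-Myb and FoxM1 to activate them. MuvB reaches the promoters through its subunit Lin54, which binds the cell cycle genes homology region (CHR), often close to CCAAT boxes bound by NF-Y. Treg cells are known to contain a larger dividing fraction than most other CD4+ T cells in unchallenged mice. In RNA from a bulk sort, a larger number of dividing cells and more of each transcript per dividing cell cannot be told apart.

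Because the genes moved together, as described below, their promoters are shown first. RefSeq promoter windows (GRCm38.p6, the assembly also called mm10, 250 bases before to 50 after each gene start) were found for 31 of the 35 genes, 32 windows in all because Prc1 has 2 starts 25 bases apart. The windows were searched on both strands for the CHR core TTTGAA and for CCAAT. A match is given here as a description of the letters, not as a bound site. The 6 stretches printed belong to the member with the highest mean CPM (counts scaled to a library total of 1000000) and a window in each of 6 roles. They run from 220 bases before to 30 after the start, 5′ to 3′ on the gene's strand, with both motifs in capitals.
Mki67: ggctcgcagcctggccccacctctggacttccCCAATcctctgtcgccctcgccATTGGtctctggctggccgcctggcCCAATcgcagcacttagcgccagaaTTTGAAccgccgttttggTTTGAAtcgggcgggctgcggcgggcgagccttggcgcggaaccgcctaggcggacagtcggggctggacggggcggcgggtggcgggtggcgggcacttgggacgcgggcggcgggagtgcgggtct
Cenpa: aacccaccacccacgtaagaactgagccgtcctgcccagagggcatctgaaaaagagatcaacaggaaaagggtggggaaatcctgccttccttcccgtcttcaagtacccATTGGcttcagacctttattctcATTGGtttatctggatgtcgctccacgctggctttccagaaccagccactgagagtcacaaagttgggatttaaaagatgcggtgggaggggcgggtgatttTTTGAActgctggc
Bub1b: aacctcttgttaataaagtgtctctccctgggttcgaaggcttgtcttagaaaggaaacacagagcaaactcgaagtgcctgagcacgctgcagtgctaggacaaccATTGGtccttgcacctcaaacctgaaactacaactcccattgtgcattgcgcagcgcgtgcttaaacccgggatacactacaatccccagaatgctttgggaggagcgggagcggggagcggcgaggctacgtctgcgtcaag
Prc1: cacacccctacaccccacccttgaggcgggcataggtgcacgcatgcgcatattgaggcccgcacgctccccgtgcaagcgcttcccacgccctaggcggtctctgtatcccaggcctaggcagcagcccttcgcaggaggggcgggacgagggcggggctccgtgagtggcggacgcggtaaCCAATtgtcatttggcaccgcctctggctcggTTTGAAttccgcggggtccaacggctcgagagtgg
Kif23: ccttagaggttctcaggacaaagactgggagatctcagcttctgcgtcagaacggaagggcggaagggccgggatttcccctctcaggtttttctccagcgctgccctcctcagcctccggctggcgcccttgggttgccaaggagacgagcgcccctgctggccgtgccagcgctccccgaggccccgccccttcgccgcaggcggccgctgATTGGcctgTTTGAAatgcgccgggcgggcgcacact
Ccnb2: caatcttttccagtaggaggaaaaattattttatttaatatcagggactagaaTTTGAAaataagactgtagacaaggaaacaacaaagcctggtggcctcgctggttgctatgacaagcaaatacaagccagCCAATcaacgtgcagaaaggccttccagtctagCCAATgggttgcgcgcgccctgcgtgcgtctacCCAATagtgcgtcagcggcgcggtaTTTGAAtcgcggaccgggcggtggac
They lie at chr7:135716350-135716599 (Mki67, minus strand), chr5:30666666-30666915 (Cenpa, plus), chr2:118597991-118598240 (Bub1b, plus), chr7:80294231-80294480 (Prc1, plus), chr9:61946770-61947019 (Kif23, minus) and chr9:70421525-70421774 (Ccnb2, minus). Ccnb2 shows the arrangement at its plainest, with CCAAT matches at -87, -54 and -21 and a CHR match at 5, counted from the start, besides a CHR match further upstream at -167. In Kif23 and Prc1 a single CHR match follows a single CCAAT match near the start, and in Mki67 both kinds of match lie further upstream. The CHR match of Bub1b begins at 41, beyond the stretch printed.

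A CHR match was present in 25 of the 32 windows (78.1%), against 17.9% of all 32851 windows in the table and 12.1% of the 11610 windows of genes that entered the test. CCAAT was present in 26 windows (81.2%), against 37.4% and 37.8%. Both were present in 22 windows (68.8%), against 6.95% and 4.85%, and in 1 of the windows of these genes the 2 motifs share a base. In 23 windows (71.9%) the centre of a CHR match lay within 60 bases of the start, against 5.66% of all windows. The 88 other mitosis genes listed for comparison had a CHR match in 54.4% of 79 windows, and the 52 replication and G1/S genes in 15.7% of 51. Nuf2, Nek2, Nusap1, Bub1, Cenpe, Birc5 and Ccnb1 had a window without the CHR letters. Their fold changes between the groups, given below, ran from 0.95 to 1.12 on the log2 scale, inside the range of 0.19 to 1.36 of the 24 genes with a match.

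**Figure D1:**
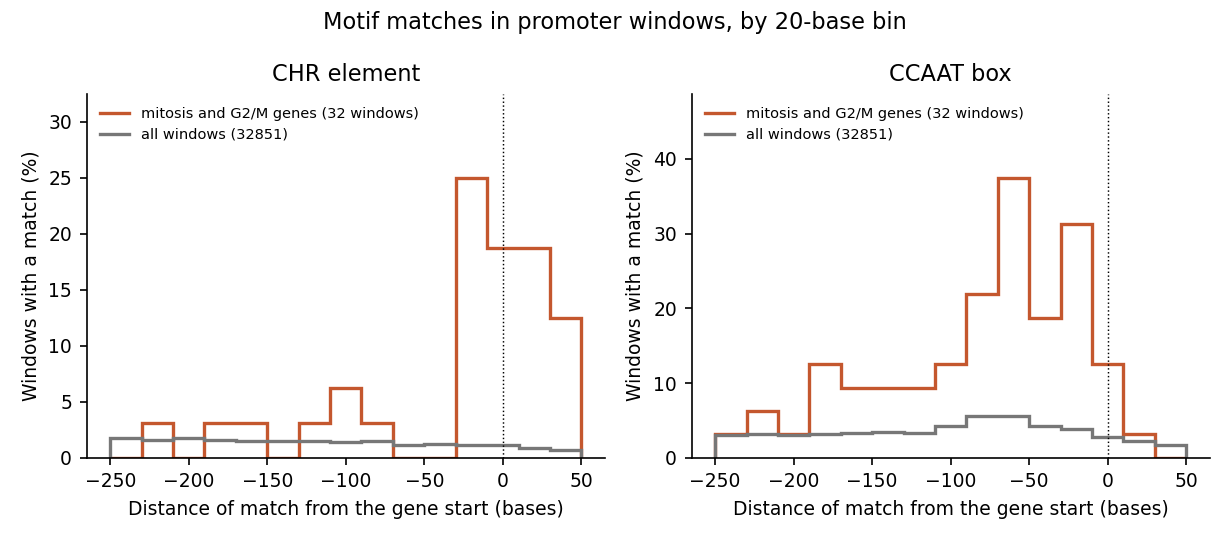
Share of promoter windows (y axis, percent) with a match to the CHR (left) or to CCAAT (right) starting in each 20-base bin (x axis, distance from the gene start in bases), for the 32 windows of the mitosis and G2/M genes and for all 32851 windows. CHR matches of the mitosis genes lie mostly from 30 bases before to 50 after the start, and CCAAT matches mostly upstream of it.

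The 9 libraries were of similar depth, with 15269014 to 17425634 counts. The Treg markers were present in all of them: Foxp3, Cd4, Cd3e, Il2ra, Ctla4 and Ikzf2 together took 4082 to 4439.6 CPM. Esrrg had 0 counts in all 9 libraries, where 3 counts equal 0.172 to 0.196 CPM, so the knockout could not be checked on its RNA. One library stood apart from its label: KO 4 held 27 counts of Xist, the RNA expressed from the inactive X of female cells, against 27355 to 35693 in the other 8. From the Y chromosome, Uty, Kdm5d, Ddx3y and Eif2s3y summed to 2 counts in KO 4, 23 in WT 2, 3 in WT 5 and 0 in the other 6 libraries. KO 1 and KO 4 also carried the most transcripts of plasma cells and granulocytes, with values given beside the results they move with. Results are therefore given with and without KO 4, and without KO 1 and KO 4 together.

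The levels of the mitosis and G2/M genes differed widely among libraries of the same genotype as well as between the genotypes. Their summed level was 422, 829, 389, 470.2 and 432 in WT 1 to 5 and 1161, 514, 642 and 1497 in KO 1 to 4, in CPM. As a share of all counts this was lowest in WT 3, at 0.0389% (0.0380 to 0.0399), and highest in KO 4, at 0.150% (0.148 to 0.152), with 95% Wilson intervals that cover counting error only. KO 4 and KO 1 stood highest, the control WT 2 came next at 0.0829% (0.0815 to 0.0843), and KO 3, KO 2 and the other 4 controls followed. The group means were 508 ± 181 CPM in WT (SD, n = 5) and 953 ± 458 CPM in KO (SD, n = 4), and the groups overlapped because WT 2 lay above KO 2 and KO 3.

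Gene by gene the order was nearly the same. All 35 genes were highest in KO 4 and next highest in KO 1. In 34 of them WT 2 came next and then KO 3, the exception being Cenpa, for which WT 1 followed KO 1. The order of KO 4, KO 1 and WT 2 as the 3 highest was met by 3.09% of all genes tested. KO 3 lay above WT 1, WT 3, WT 4 and WT 5 in 34 genes, KO 2 lay above those 4 controls in 24, and KO 3 lay above KO 2 in all 35. The lowest library was WT 3 for 18 genes and WT 1 for 14. Relative to each gene's median over the 9 libraries, the genes stood at a median of 1.72 on the log2 scale in KO 4, 1.24 in KO 1, 0.77 in WT 2, 0.31 in KO 3 and -0.49 in WT 3.

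**Figure D2:**
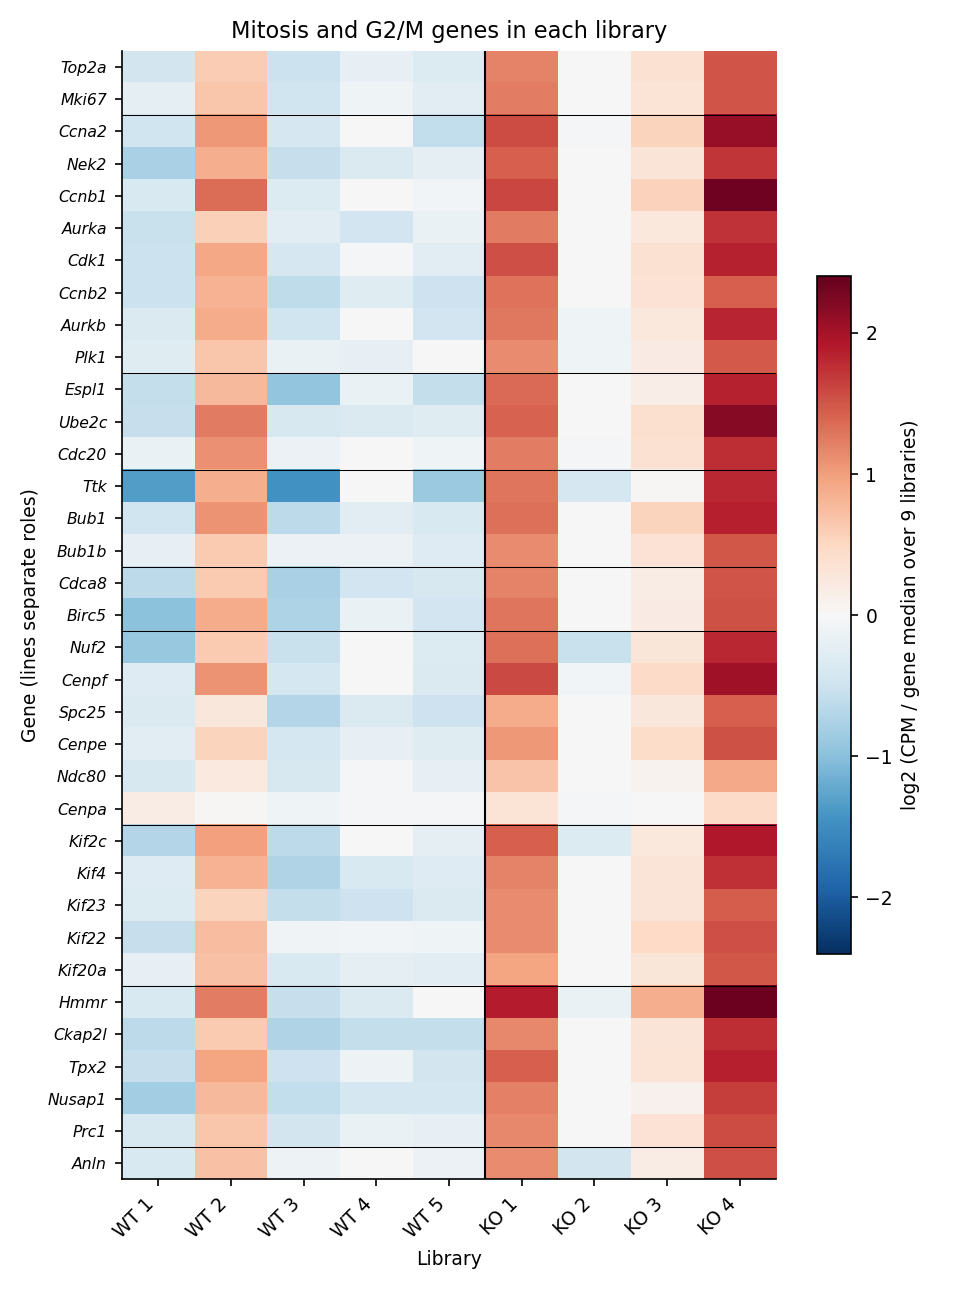
Log2 ratio of each gene's CPM to its own median over the 9 libraries (colour), for the 35 genes (rows, grouped by role) in 5 WT and 4 KO libraries (columns). KO 4, KO 1 and WT 2 are high from top to bottom, and the row of Cenpa is the palest.

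Within each group the genes varied far more than most. The median coefficient of variation was 47.5% in WT and 54.9% in KO, against 7.32% and 7.69% over all genes tested. The ratio of the highest to the lowest library had a median of 4.90 over the 35 genes and 1.31 over all genes tested, and ran from 1.47 for Cenpa to 9.69 for Ttk. Ttk was also the least counted, with 16 counts in WT 3 and 152 in KO 4, so its ratio is the least precise.

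Between the groups every gene had a higher mean in KO, and none passed the test. By edgeR's quasi-likelihood test with Benjamini-Hochberg adjustment over all genes tested, 0 of the 35 had an adjusted p under 0.05, whereas 418 of 12738 genes did (3.28%; 178 of them, or 1.4%, higher in KO). The log2 fold changes (KO over WT) of the 35 ran from 0.19 to 1.36 with a median of 1.04, against a median of 0.0052 over all genes tested. The median standard error was 0.439, against 0.0751 over all genes. Before adjustment, 19 of the 35 had p under 0.05, all higher in KO, where 11.1% of all genes tested met that rule and 21.6% did so in either direction. The WT and KO values did not separate for any of the 35, while 3.94% of genes tested were separate and higher in KO. The count over all genes changed with the library left out. Leaving out WT 1 gave 332 genes, WT 2 697, WT 3 97, WT 4 134 and WT 5 117. Leaving out KO 1 gave 311, KO 2 544, KO 3 182 and KO 4 103. Among the 35 genes only Spc25 passed in a fit that left out 1 library, without WT 2 (adjusted p = 0.0371) and without KO 2 (adjusted p = 0.0334). Over all genes tested those fits called 5.52% and 4.21%. DESeq2 called 4 of the 35, Aurka, Nek2, Ndc80 and Spc25, where 919 genes passed in all (7.21% of those tested).

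**Figure D3:**
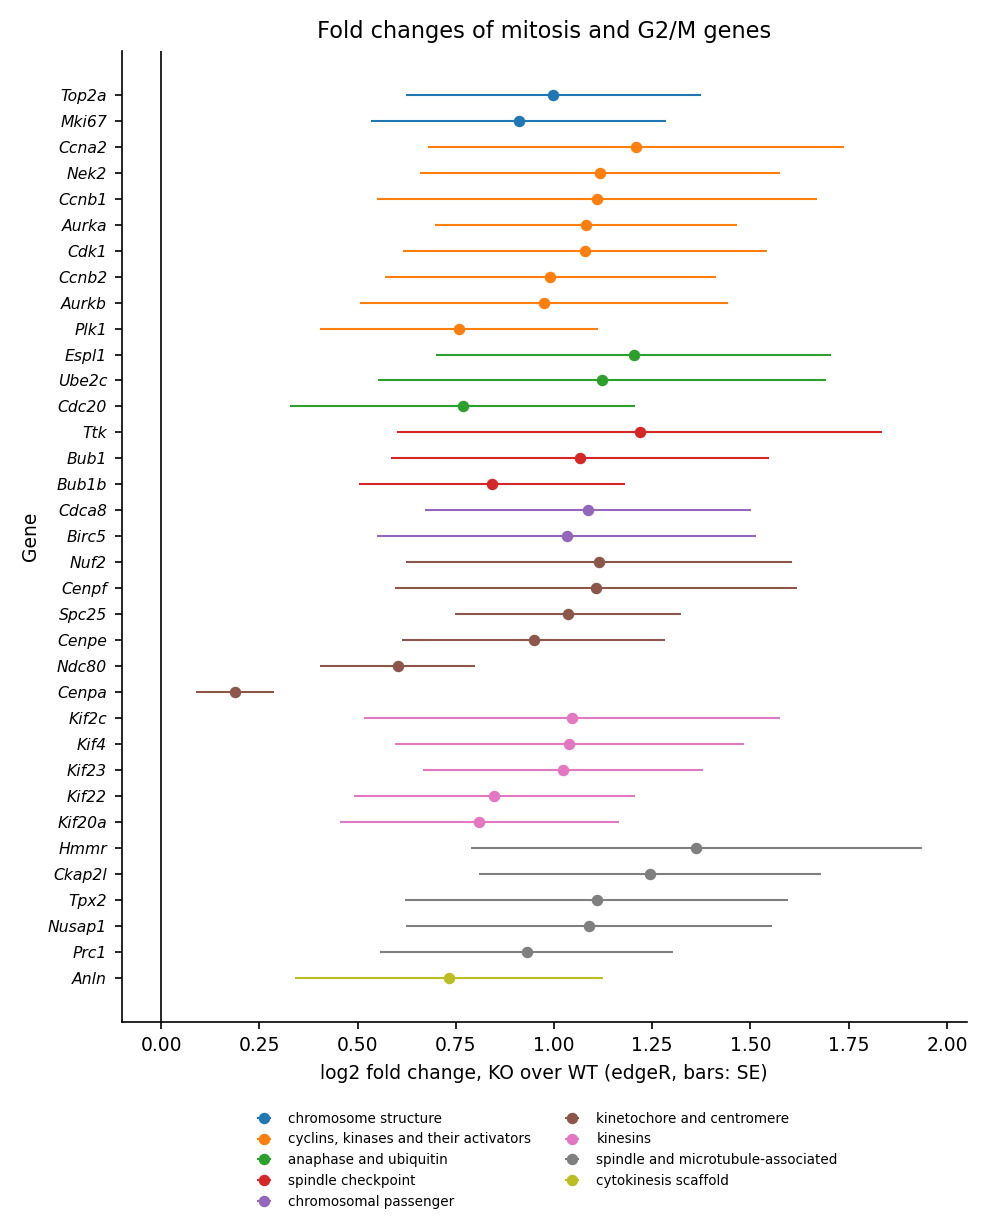
Log2 fold change of each of the 35 genes, KO over WT (x axis), with its standard error (bars), from edgeR with 5 WT and 4 KO libraries, coloured by role. All 35 points lie above 0, most near 1, and Cenpa at 0.19 has the smallest value and a narrow error.

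Mki67 and Top2a were the most counted of the genes. Mki67 (chr7:135689784-135716361, mm10) encodes Ki-67, the protein coat of mitotic chromosomes that is stained as the standard marker of dividing cells. It was at 94.2, 174, 78.1, 101 and 90.4 CPM in WT 1 to 5 and 256, 109, 138 and 309.7 CPM in KO 1 to 4. KO 1 and KO 4 lay above all controls, and KO 2 and KO 3 lay between WT 2 and the other controls. The means were 108 ± 38.2 CPM in WT (SD, n = 5) and 203 ± 95.3 CPM in KO (SD, n = 4) (log2 fold change 0.91 ± 0.37 (SE), edgeR adjusted p = 0.218). Top2a (chr11:98992943-99024189) encodes topoisomerase II alpha, which untangles sister chromatids, and was at 59.4, 123, 56.5, 70.7 and 64.3 CPM in WT 1 to 5 and 184, 80.8, 104 and 231 CPM in KO 1 to 4 (log2 fold change 0.998 ± 0.38 (SE), edgeR adjusted p = 0.186).

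The cyclins and the kinase they drive followed the same libraries. Ccna2, cyclin A2 of S phase and G2, was at 10.3, 29.5, 10.8, 14.3 and 9.52 CPM in WT 1 to 5 and 42.5, 14.0, 20.8 and 60.9 CPM in KO 1 to 4 (log2 fold change 1.21 ± 0.53 (SE), edgeR adjusted p = 0.240). The B-type cyclins are the partners of Cdk1 at mitotic entry. Ccnb1 was at 2.84, 9.35, 2.92, 3.67 and 3.53 CPM in WT 1 to 5 and 11.2, 3.67, 5.39 and 18.4 CPM in KO 1 to 4 (log2 fold change 1.11 ± 0.56 (SE), edgeR adjusted p = 0.294). Ccnb2 was at 7.88, 20.03, 7.31, 9.10 and 7.94 CPM in WT 1 to 5 and 27.6, 11.2, 14.2 and 30.3 CPM in KO 1 to 4 (log2 fold change 0.99 ± 0.42 (SE), edgeR adjusted p = 0.227). Cdk1, the kinase that triggers mitosis, was at 4.62, 12.5, 4.99, 6.48 and 5.55 CPM in WT 1 to 5 and 19.2, 6.58, 8.45 and 23.7 CPM in KO 1 to 4 (log2 fold change 1.08 ± 0.46 (SE), edgeR adjusted p = 0.230). In all 4 genes the control WT 2 lay above KO 2 and KO 3, and KO 4 was the highest library.

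The other mitotic kinases had fold changes of similar size. Plk1, the polo-like kinase of centrosomes and kinetochores, was at 7.76, 15.05, 8.46, 8.25 and 9.46 CPM in WT 1 to 5 and 20.8, 8.80, 10.8 and 26.1 CPM in KO 1 to 4 (log2 fold change 0.76 ± 0.35 (SE), edgeR adjusted p = 0.260). Aurka, the Aurora kinase of the spindle poles, was at 3.26, 7.10, 3.96, 3.47 and 4.22 CPM in WT 1 to 5 and 11.3, 4.75, 5.65 and 15.7 CPM in KO 1 to 4 (log2 fold change 1.08 ± 0.38 (SE), edgeR adjusted p = 0.156). Aurkb is the Aurora kinase of the centromere and midzone, and it ranged over 5.91 to 15.2 CPM in WT and 7.60 to 28.9 CPM in KO (log2 fold change 0.97 ± 0.47 (SE), edgeR adjusted p = 0.274). Nek2, a kinase of centrosome separation, ranged over 2.61 to 8.25 CPM in WT and 4.49 to 14.8 CPM in KO (log2 fold change 1.12 ± 0.46 (SE), edgeR adjusted p = 0.209). Over the 8 genes of cyclins and kinases the log2 fold changes ran from 0.76 for Plk1 to 1.21 for Ccna2.

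Genes of anaphase and its checkpoint came next. Cdc20 activates the anaphase promoting complex, the ubiquitin ligase that ends mitosis, and was at 7.64, 18.4, 7.80, 8.58 and 7.94 CPM in WT 1 to 5 and 20.2, 8.36, 10.98 and 29.4 CPM in KO 1 to 4 (log2 fold change 0.77 ± 0.44 (SE), edgeR adjusted p = 0.353). WT 2 lay within the KO range and far above the other controls, and the adjusted p was the highest of the 35. Ube2c, the ubiquitin-conjugating enzyme of that complex, was at 4.39, 15.4, 4.93, 5.11 and 5.30 CPM in WT 1 to 5 and 17.3, 6.46, 8.38 and 29.2 CPM in KO 1 to 4 (log2 fold change 1.12 ± 0.57 (SE), edgeR adjusted p = 0.297). Espl1 encodes separase, the protease that opens cohesin, and ranged over 4.38 to 14.6 CPM in WT and 8.48 to 30.7 CPM in KO (log2 fold change 1.202 ± 0.50 (SE), edgeR adjusted p = 0.219). The checkpoint kinases Bub1 and Ttk and the checkpoint protein gene Bub1b hold anaphase until all chromosomes are attached. Bub1 ranged over 3.04 to 9.83 CPM in WT and 4.68 to 17.02 CPM in KO, Ttk over 0.974 to 4.92 CPM in WT and 2.03 to 9.44 CPM in KO and Bub1b over 11.5 to 22.1 CPM in WT and 14.2 to 39.8 CPM in KO. Their log2 fold changes were 1.07 (edgeR adjusted p = 0.246), 1.22 (edgeR adjusted p = 0.292) and 0.84 (edgeR adjusted p = 0.203).

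The kinetochore genes held both the smallest change and the smallest p. Cenpa, the histone H3 variant that marks centromeres (chr5:30666777-30674830), was at 72.1, 64.6, 59.4, 62.6 and 62.6 CPM in WT 1 to 5 and 80.1, 62.6, 63.7 and 87.2 CPM in KO 1 to 4 (log2 fold change 0.19 ± 0.10 (SE), edgeR adjusted p = 0.296). Here WT 1, low for nearly all the other genes, was the highest control, and the libraries differed by 1.47 times at most. Spc25, a subunit of the microtubule-binding Ndc80 complex, was at 2.90, 4.43, 2.25, 2.88 and 2.58 CPM in WT 1 to 5 and 6.83, 3.67, 4.42 and 9.87 CPM in KO 1 to 4. It had the lowest p of the 35 (log2 fold change 1.03 ± 0.29 (SE), edgeR adjusted p = 0.0753), and WT 2 still lay level with KO 3 and above KO 2. Ndc80, which names that complex, was at 7.76, 11.95, 7.86, 9.95 and 8.89 CPM in WT 1 to 5 and 16.4, 10.2, 10.8 and 19.1 CPM in KO 1 to 4 (log2 fold change 0.60 ± 0.20 (SE), edgeR adjusted p = 0.120). Nuf2, another subunit of that complex, ranged over 2.49 to 7.16 CPM in WT and 3.23 to 16.3 CPM in KO (log2 fold change 1.11 ± 0.49 (SE), edgeR adjusted p = 0.238). Cenpe, the kinetochore motor that carries chromosomes to the spindle equator, ranged over 10.8 to 21.1 CPM in WT and 14.5 to 41.8 CPM in KO (log2 fold change 0.95 ± 0.33 (SE), edgeR adjusted p = 0.161). Cenpf, a large protein of the outer kinetochore, ranged over 7.13 to 20.2 CPM in WT and 9.18 to 39.1 CPM in KO (log2 fold change 1.11 ± 0.51 (SE), edgeR adjusted p = 0.261).

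The chromosomal passenger genes Birc5 and Cdca8 encode survivin and borealin, which place Aurora B on the centromere. Birc5 was at 4.98, 18.1, 5.85, 8.78 and 7.12 CPM in WT 1 to 5 and 24.0, 9.81, 11.2 and 28.4 CPM in KO 1 to 4 (log2 fold change 1.03 ± 0.48 (SE), edgeR adjusted p = 0.262). Cdca8 ranged over 6.15 to 16.3 CPM in WT and 10.5 to 30.1 CPM in KO (log2 fold change 1.09 ± 0.42 (SE), edgeR adjusted p = 0.187). Both were highest in KO 4, and WT 2 lay above KO 2 and KO 3.

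The 5 kinesins had log2 fold changes of 0.81 to 1.05. Kif23 and Kif20a work at the central spindle in cytokinesis, Kif4 and Kif22 on chromosome arms, and Kif2c takes microtubules apart at centromeres. Kif23 was at 9.84, 17.7, 8.22, 8.71 and 9.65 CPM in WT 1 to 5 and 27.1, 12.3, 15.3 and 33.7 CPM in KO 1 to 4 (log2 fold change 1.02 ± 0.36 (SE), edgeR adjusted p = 0.156). Kif4, the only one of the 35 on the X chromosome, was at 5.33, 11.8, 4.02, 5.17 and 5.36 CPM in WT 1 to 5 and 15.1, 6.65, 8.25 and 22.4 CPM in KO 1 to 4 (log2 fold change 1.04 ± 0.44 (SE), edgeR adjusted p = 0.226). In KO 4, the library nearly without Xist, it stood 1.75 above its median on the log2 scale, close to the 1.72 that is the median of the 35 in that library. Kif20a ranged over 10.6 to 22.3 CPM in WT and 13.7 to 38.6 CPM in KO (log2 fold change 0.81 ± 0.35 (SE), edgeR adjusted p = 0.238). Kif22 ranged over 6.87 to 16.9 CPM in WT and 10.1 to 29.6 CPM in KO (log2 fold change 0.85 ± 0.36 (SE), edgeR adjusted p = 0.220). Kif2c ranged over 2.55 to 8.19 CPM in WT and 3.29 to 15.6 CPM in KO (log2 fold change 1.05 ± 0.53 (SE), edgeR adjusted p = 0.295). In each of these kinesins KO 4 was the highest library.

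Hmmr, a spindle protein also known as a hyaluronan receptor, had the largest fold change of the 35. It was at 3.26, 9.89, 2.86, 3.34 and 4.22 CPM in WT 1 to 5 and 15.6, 3.80, 7.73 and 21.7 CPM in KO 1 to 4 (log2 fold change 1.36 ± 0.57 (SE), edgeR adjusted p = 0.223). KO 2 lay below WT 5 there, and KO 3 lay below WT 2. Ckap2l, a spindle-associated protein gene, was at 4.03, 9.53, 3.78, 4.19 and 4.16 CPM in WT 1 to 5 and 13.8, 6.20, 7.67 and 21.3 CPM in KO 1 to 4 (log2 fold change 1.24 ± 0.44 (SE), edgeR adjusted p = 0.156). Nusap1 bundles spindle microtubules, Tpx2 activates Aurora A on the spindle and Prc1 cross-links the central spindle. Nusap1 ranged over 6.16 to 18.8 CPM in WT and 11.01 to 34.8 CPM in KO, Tpx2 over 7.76 to 21.8 CPM in WT and 11.3 to 41.4 CPM in KO and Prc1 over 9.74 to 21.1 CPM in WT and 13.2 to 39.0 CPM in KO. Their log2 fold changes were 1.09 (edgeR adjusted p = 0.230), 1.11 (edgeR adjusted p = 0.240) and 0.93 (edgeR adjusted p = 0.202). Anln encodes anillin, the scaffold of the contractile ring, and was at 3.20, 6.74, 3.78, 4.13 and 3.72 CPM in WT 1 to 5 and 9.07, 3.04, 4.68 and 11.99 CPM in KO 1 to 4 (log2 fold change 0.73 ± 0.39 (SE), edgeR adjusted p = 0.311). It was the one gene for which KO 2 was the lowest of all 9 libraries.

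Compared per length, as mean CPM per kilobase of the longest annotated transcript, the order of the group means differed between WT and KO. The KO means include KO 1 and KO 4, which stood highest in all 35 genes. The order within single libraries was not compared. In WT Cenpa was the most abundant (16.9), followed by Top2a (14.3), Mki67 (10.7) and Ccnb2 (6.83). In KO Top2a came first (28.8), followed by Mki67 (20.2), Cenpa (19.3) and Ccnb2 (13.6). Ttk and Anln were the lowest in both groups, with Ttk at 0.773 in WT and 1.81 in KO and Anln at 0.936 and 1.56. The 35 genes lie on 14 chromosomes. In the GENCODE M21 annotation 19 of them overlap another annotated gene, 16 of these on the other strand, among them Ccna2 with Exosc9, Cdc20 with Elovl1, Ube2c with Tnnc2 and Kif4 with Pdzd11. Whether strand was used in counting is not stated, so counts of these pairs are less certain. The 16 genes with no overlap, such as Cdk1, Aurkb and Hmmr, had the order of libraries given above, Cenpa excepted. The effect of overlaps on the counts was not tested.

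Other genes of the cycle showed how far the pattern reached. Of 88 further mitosis genes, 84 (95.5%) were above 0 on the log2 fold scale (median 0.72), against 51.5% of all genes tested. The same 3 libraries were highest in the same order in 64 (72.7%), against 3.09% of all genes tested. By edgeR 2 of the 88 passed, both higher in KO, where 3.28% of all genes tested passed and 1.4% were higher in KO. Cdc25b, a phosphatase that activates Cdk1, was at 141, 140.2, 127, 132 and 139 CPM in WT 1 to 5 and 168, 149, 156 and 177 CPM in KO 1 to 4 (log2 fold change 0.26 ± 0.05 (SE), edgeR adjusted p = 0.0213), and its groups did not overlap. Cenpi, a gene of the inner kinetochore, was at 2.19, 3.76, 1.77, 2.03 and 2.33 CPM in WT 1 to 5 and 5.39, 3.80, 3.51 and 7.27 CPM in KO 1 to 4 (log2 fold change 1.04 ± 0.26 (SE), edgeR adjusted p = 0.0469), with WT 2 inside the KO range. Of the 16 genes of the DREAM and B-Myb complexes and NF-Y, 0 passed by edgeR. An unadjusted p under 0.05 was found for 2 (12.5%), against 21.6% of all genes tested. The median log2 fold change of the 16 was 0.07, and 3 had the same order of libraries. The gene with the smallest p was Tfdp1, the dimer partner of E2F factors, at 0.41 (edgeR adjusted p = 0.0542), followed by E2f4 at 0.11 (edgeR adjusted p = 0.129). Foxm1 and Mybl2 (B-Myb), the activators of G2/M promoters, were singled out after their values were seen: Foxm1 was at 10.5, 22.5, 11.4, 12.9 and 12.4 CPM in WT 1 to 5 and 25.8, 13.4, 17.3 and 38.4 CPM in KO 1 to 4 (log2 fold change 0.76 ± 0.35 (SE), edgeR adjusted p = 0.256) and Mybl2 at 4.56, 7.16, 3.84, 5.11 and 5.04 CPM in WT 1 to 5 and 10.2, 4.30, 5.39 and 11.6 CPM in KO 1 to 4 (log2 fold change 0.61 ± 0.30 (SE), edgeR adjusted p = 0.263). Both were highest in KO 4, followed by KO 1 and WT 2.

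Genes of DNA replication and the G1/S transition moved in the same libraries by less. All 52 lay above 0 on the log2 fold scale (median 0.33), against 51.5% of all genes tested. KO 4, KO 1 and WT 2 were highest in that order in 28 (53.8%), against 3.09% of all genes tested. Their summed level was 1634, 2063, 1559, 1689 and 1626 in WT 1 to 5 and 2376, 1774, 1891 and 2537 in KO 1 to 4, in CPM, and the ratio of highest to lowest library was 1.63, against 3.85 for the 35 mitosis and G2/M genes. Before adjustment 29 (55.8%) had an edgeR p under 0.05, against 21.6% of all genes tested. By edgeR 1 of the 52 passed, where 3.28% of all genes tested did. E2f2, an E2F factor, was that gene, at 88.7, 106, 91.2, 96.7 and 91.5 CPM in WT 1 to 5 and 117, 105, 104 and 127 CPM in KO 1 to 4 (log2 fold change 0.26 ± 0.06 (SE), edgeR adjusted p = 0.0460). The smallest p after it belonged to the maintenance DNA methyltransferase gene Dnmt1 at 0.24 (edgeR adjusted p = 0.0551) and the polymerase delta gene Pold1 at 0.20 (edgeR adjusted p = 0.0570).

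The order of libraries seen in the mitosis genes was met by 0 to 2 genes in each of 3 other lists. For comparison, 3.28% of all genes tested passed, 21.6% had an unadjusted p under 0.05 and 51.5% lay above 0. Of 16 genes for the anaphase promoting complex and its regulators, 9 lay above 0 (median log2 fold change 0.011), and 1 had the 3 libraries highest in the same order. Cdc27, a core subunit, was the gene that passed: it was at 87.8, 89.4, 91.0, 90.8 and 95.5 CPM in WT 1 to 5 and 129, 114, 123 and 125 CPM in KO 1 to 4 (log2 fold change 0.44 ± 0.04 (SE), edgeR adjusted p = 0.000153), with no overlap between the groups and WT 2 among the low values. A list of cycle entry genes held D-type cyclins, cyclin-dependent kinases, Cdc25a, Ccnh, Mnat1 and Myc. Of its 11 tested genes 0 passed by edgeR and 2, Mnat1 and Myc, had an unadjusted p under 0.05, both lower in KO. The median log2 fold change was 0.02, and none had that order. Of 19 tested genes for inhibitors and brakes of the cycle, 5 lay above 0 (median log2 fold change -0.08), and 2 (10.5%) had the 3 libraries highest in that order, against 3.09% of all genes tested. The p53 target Ccng1, at 169, 167, 169, 178 and 161 CPM in WT 1 to 5 and 182, 195, 189 and 196 CPM in KO 1 to 4 (log2 fold change 0.17 ± 0.04 (SE), edgeR adjusted p = 0.0460), passed alone. Cdkn1a, the inhibitor p21, had the next smallest p at 0.90 (edgeR adjusted p = 0.0716), with levels of 0.694 to 1.66 CPM in WT and 1.69 to 2.64 CPM in KO. These did not overlap, but WT 1 (1.66) and KO 3 (1.69) nearly met at this low level. Of all genes tested, 3.94% were separate and higher in KO. Of the 5 genes called in these lists, only Cdc27 passed without KO 4 (edgeR adjusted p = 0.000992) and without KO 1 and KO 4 together (edgeR adjusted p = 0.00339).

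Markers of other cells moved with part of this pattern. The 12 plasma cell markers summed to 1354, 1050.3, 1134, 1007 and 938 in WT 1 to 5 and 2614, 1116, 1446 and 6746 in KO 1 to 4, in CPM. The 12 granulocyte and precursor markers summed to 6.04, 2.37, 7.73, 7.73 and 3.03 in WT 1 to 5 and 51.4, 2.66, 8.06 and 174 in KO 1 to 4, in CPM. All 11 plasma cell and all 5 granulocyte markers that passed the filter had a higher mean in KO, with 0 called by edgeR. An unadjusted p under 0.05 was found for 11 and 3 of them, where 21.6% of all genes tested met that rule. The filter keeps genes with enough counts in as many libraries as the smaller group holds, so it can favour markers high in KO. These counts are therefore a description and not a test. Of the granulocyte markers Ly6g was at 0 counts in KO 4, and Ngp, Camp, Ltf and Mmp8 were at 0 in WT 2. Both sums were highest in KO 4 and KO 1, and WT 2 lay within the range of the other controls or below it. Mpo, the myeloperoxidase gene of granulocyte precursors, had 1495 counts in KO 4, 364 in KO 1 and 24 in WT 2, against 17 to 61 in the other 6 libraries. The 13 erythroblast markers summed to 19.8, 9.89, 11.1, 7.79 and 19.4 in WT 1 to 5 and 56.6, 6.01, 10.4 and 78.5 in KO 1 to 4, in CPM, again highest in KO 4 and KO 1. The 10 macrophage markers summed to 166 CPM in KO 4 and 108 CPM in KO 1, 36.3 CPM in WT 2, and 27.6 to 65.6 CPM elsewhere. The 8 B cell markers summed to 32.4 to 41.3 CPM in WT and 36.8 to 53.7 CPM in KO, and the 8 CD8 T and NK cell markers to 26.3 to 30.9 and 27.7 to 32.5 CPM. The part of these cells in the mitosis and G2/M levels of KO 1 and KO 4 was not tested. In WT 2 the mitosis and G2/M genes were high while the plasma cell, granulocyte, erythroblast and macrophage markers were not.

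**Figure D4:**
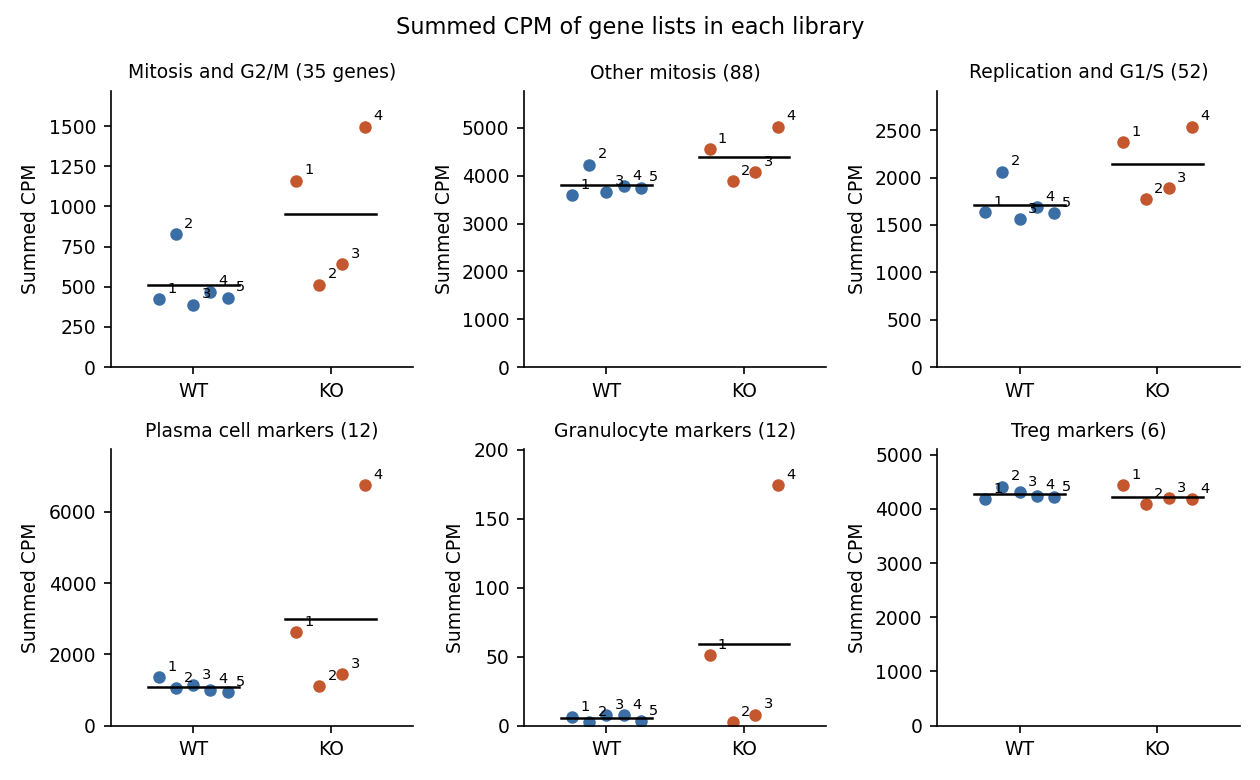
Summed CPM (y axis, from 0) of 6 gene lists in each WT and KO library (points, numbered by replicate, with horizontal lines at the group means). KO 4, KO 1 and WT 2 are high in the 3 lists of cycle genes, KO 4 and KO 1 alone in plasma cell and granulocyte markers, and the Treg markers are level.

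The size of the difference between the groups rested on a few libraries. Without KO 4 the median log2 fold change of the 35 genes went from 1.04 to 0.70, with all 35 positive and 0 called, where 0.803% of the genes tested were called. Without KO 1 and KO 4 together it was 0.22, with 31 of 35 positive and 0 called, where 0.908% of genes tested were called. In that fit 0 of the 35 had an unadjusted p under 0.05, against 14.0% of genes tested. Anln, Cdc20, Kif2c and Cenpa then had negative values. Without WT 2 the median was 1.39, and 34 of the 35 had an unadjusted p under 0.05, as did 23.9% of all genes tested in that fit, of which 5.52% were called. WT 2, KO 1 and KO 4 were known to stand high in these genes, so the fits without any of them are descriptions and not tests. Leaving out high KO libraries lowers the fold changes by construction, and leaving out WT 2 raises them. The fit without all 3 describes the other 6 libraries. There the median was 0.54, and 34 of 35 were positive, Cenpa being the exception. Ccnb2, Kif23, Nusap1, Ckap2l and Cdca8 fell under the threshold, 5 of 35 where 1.89% of genes tested did. The libraries were left out by their level in these same genes, so this count is not a test of them. In that fit the log2 fold changes of the 5 were 0.61 (Kif23) to 0.79 (Ckap2l).

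**Figure D5:**
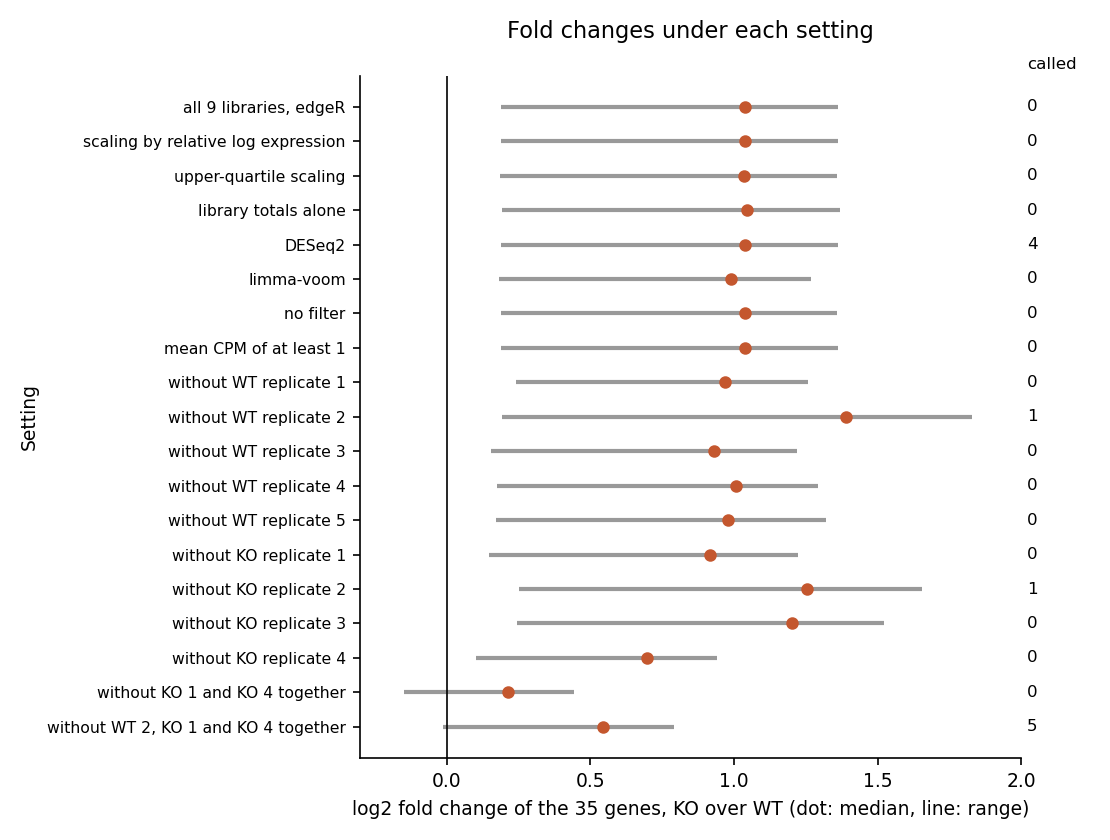
Median (dot) and range (line) of the log2 fold changes of the 35 genes, KO over WT (x axis), under each scaling, test, filter and choice of libraries (y axis), with the number of the 35 that passed at the right. The medians stay near 1 for scalings, tests and filters, and reach 0.22 without KO 1 and KO 4 and 1.39 without WT 2. The number shown without WT 2, KO 1 and KO 4 is not a test, since these libraries were left out by their level in the same genes.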

How the data were processed

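RNA of sorted splenic Treg cells was sequenced from 5 WT and 4 KO mice, grouped by their titles. A TruSeq Stranded kit was used, per the labels' protocols. The values are raw read counts per gene as deposited by the authors, with 15269014 to 17425634 counts per library, and all 9 columns matched 1 sample each. Per the submitters' processing notes the tools included STAR 2.7 and DESeq2 and the build was mm10. How reads were counted, and with which annotation and strand option, is not stated.

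Genes passing edgeR's default expression filter entered a quasi-likelihood test in edgeR 4.0.16 (R 4.3.3, robust dispersion, trimmed-mean scaling), with Benjamini-Hochberg adjustment over all genes and a threshold of 0.05. Standard errors are the fold change divided by the root of F. The test was run on simulated counts drawn separately for each gene, which does not cover genes that move together across libraries. CPM are on library totals. Alternatives were other scalings and filters, DESeq2 1.42.0, limma-voom 3.58.1, replicate blocks and libraries left out. The members and lists, from which every gene past the threshold or up to 3 with the smallest p were named, were chosen with earlier results of these data known.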

Additional observations from a re-analysis of the deposited data

Results flagged for a closer look

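In the WT group 1 library, WT 2, stood far above the other 4 for 29 of the 35 mitosis and G2/M genes. The gap between WT 2 and the next control took more than 0.71 of the whole range of the 5 controls. Chance gives a gap of that size, at either end, in about 1 of 20 groups, but WT 2 was known to be high in these genes when they were chosen, so the count is a description and not a test. Over all genes tested, 2.72% had such a gap with WT 2 highest. The 35 genes share their libraries, so these are not 29 separate events. As a share of the range, the gap in WT was as follows for cyclins and kinases: Ccna2 (0.7585), Ccnb1 (0.8734), Ccnb2 (0.8588), Cdk1 (0.7638), Plk1 (0.7676), Aurka (0.7489), Aurkb (0.7556) and Nek2 (0.7807). For chromosome structure, anaphase and the checkpoint it was as follows: Mki67 (0.7579), Top2a (0.7873), Cdc20 (0.9135), Bub1 (0.8696), Bub1b (0.8763) and Ube2c (0.9170). For kinetochore, passenger and kinesin genes it was as follows: Birc5 (0.7102), Cenpe (0.8238), Cenpf (0.8138), Kif20a (0.8772), Kif23 (0.8299), Kif4 (0.8286), Kif2c (0.7205), Kif22 (0.7197) and Cdca8 (0.8176). For spindle and cytokinesis genes it was as follows: Nusap1 (0.8349), Tpx2 (0.8110), Prc1 (0.8087), Hmmr (0.8063), Ckap2l (0.9277) and Anln (0.7381). The summed CPM of the 35 genes (0.8156) and of the replication and G1/S genes (0.7421) had the same gap, again at WT 2. In the KO group 0 of the 35 genes had such a gap, since KO 1 and KO 4 were both high.

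Among the controls, gaps at libraries other than WT 2 appeared in 4 comparison lists. WT 1 was highest of the controls in the summed CPM of cell cycle inhibitors (0.8179) and lowest in that of entry cyclins and kinases (0.7310) and of the anaphase promoting complex (0.7159). CD8 T and NK cell markers were highest in WT 3 among controls (0.7587) and in KO 2 among KO libraries (0.8497). The cut-off stated above is that of the controls, and the one for the KO group, with fewer libraries, is higher. The last value was the only KO gap in these lists that exceeded the higher one. Plasma cell markers summed to 6746 CPM in KO 4, 2614 in KO 1 and 1116 in KO 2, the lowest KO library. Granulocyte and precursor markers summed to 174, 51.4 and 2.66 CPM in the same libraries. In both lists the gap at KO 4 exceeded the cut-off of the controls but not that of the KO group, so KO 4 was not flagged.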

How the results depend on the processing

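All 35 genes kept a positive log2 fold change under other scalings, DESeq2, limma-voom, other filters and each single library left out. Their median ran from 0.70 to 1.39 with 1 library left out, and 0 to 1 of them passed. Without KO 1 and KO 4 together the median was 0.22, and Cdc20 (-0.048), Cenpa (-0.013), Kif2c (-0.021) and Anln (-0.15) turned negative, as did Cenpa (-0.013) without WT 2, KO 1 and KO 4, in fits with 2 KO libraries. DESeq2 called 4 of the 35. The fit without those 3 libraries put 5 under the threshold, which is not a test because the libraries were left out by their level in these genes. Over all genes tested 418 passed, against 919 by DESeq2, 118 without KO 1 and KO 4, 243 without WT 2 as well, and 97 to 697 with 1 library left out. Over the 6 lists of other cycle genes 5 passed, against 3 with library totals alone, 33 by DESeq2, 1 without KO 1 and KO 4, 13 without WT 2 as well, and 1 to 26 with 1 library left out. The cause of these differences was not tested.

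The replicate numbers do not pair the mice: deviations of same-numbered libraries correlated at -0.07 to 0.10 by title number and at -0.26 to 0.10 by bracketed library number, and no same-numbered pair were each other's best match. A replicate block on title numbers was also fitted: 0 of the 35 genes, 26 of all genes (0.204%) and 1 of the other cycle genes passed, and the median of the 35 was 0.95. No KO library shares the title number of WT 5, so WT 5 did not inform that comparison. With the bracketed number as a replicate block 4 of the 35 (Bub1, Kif23, Kif4 and Spc25), 443 of all genes (3.48%) and 31 of the other cycle genes passed, and the median was 1.26. No KO library shares the bracketed number of WT 2, so the high control WT 2 did not inform that comparison. Depth limits the least counted genes most, Ttk having 16 counts in WT 3.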
